A study of Mus musculus with 10 samples.

Results

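Laminins, type IV collagen, nidogen and the collagen prolyl 4-hydroxylases were examined across mouse 8-cell embryos in which the transcription factor Klf5 or Tfap2c, or binding motifs of Tfap2c, had been perturbed. The set holds 10 genes, Lama1, Lama5, Lamb1, Lamb2, Lamc1, Col4a1, Col4a2, Nid1, P4ha1 and P4ha2, of 24421 genes in the deposited tables. All 10 were found by symbol, and 8 passed the filter on low values (1 linear unit or more in 2 or more libraries), against 11195 genes in the whole series. Lama1 and Col4a2 did not pass it. The genes were selected on their levels in the 5 sample groups and their differences from control in these same libraries, so these values are a description. Where a count of calls is given for the 10 genes, it restates values that chose them and nothing is read from it.

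RNA was measured by total RNA sequencing, with random priming and depletion of ribosomal cDNA, in 5 groups of 2 libraries from BDF1 embryos freed of zona pellucida and polar bodies. The knockdown groups were siKlf5 (Klf5 knockdown) and siTfap2c (Tfap2c knockdown). The knockout groups, Arpc1bE_CdxE1_KO and CdxE2_KO, are labelled as knockouts of Tfap2c motifs, so the Tfap2c gene itself was not their target. The fifth group was the control (Ctrl), labelled with no further detail. The labels used here give neither the positions of the deleted motifs, nor the number of embryos in a library, nor whether the libraries of a group came from separate embryo pools, so the spread between them may be technical.

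The basement membrane is a thin sheet of matrix under epithelia. Laminins, heterotrimers of an alpha, a beta and a gamma chain, assemble into a polymer at the cell surface, type IV collagen forms a network of its own, and nidogen links both. The collagen chains are made in the endoplasmic reticulum, where prolyl 4-hydroxylases convert prolines to hydroxyproline and so stabilise the triple helix. In the mouse, laminin chains appear before implantation, and later the parietal endoderm lays down a thick basement membrane, Reichert's membrane. Tfap2c belongs to the AP-2 family and Klf5 to the Krüppel-like family of transcription factors.

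Values are the deposited log2(value + 1) levels. On this scale 0 means that a gene is listed at 0, and differences between low levels are understated. The kind of abundance is not named in the sources used here, so orders between genes rest on its being scaled by transcript length. The targeted genes matched the labels: Klf5 stood at 4.36 and 4.17 log2 units in siKlf5, 5.32 and 5.45 in siTfap2c, 6.98 and 7.13 in Arpc1bE_CdxE1_KO, 7.12 and 6.95 in CdxE2_KO, and 7.20 and 7.13 in Ctrl. Tfap2c stood at 6.51 and 6.57 in siKlf5, 3.94 and 4.09 in siTfap2c, 6.50 and 6.66 in Arpc1bE_CdxE1_KO, 6.61 and 6.48 in CdxE2_KO, and 6.61 and 6.61 in Ctrl. Summed linear values ranged from 478651 to 498621 over the 4 libraries of the motif knockouts, against 388454 to 395401 in the knockdown and control libraries. The median difference over all tested genes was accordingly 0.27 log2 units for Arpc1bE_CdxE1_KO against Ctrl and 0.29 for CdxE2_KO against Ctrl, while it was -0.02 for siKlf5 and 0.04 for siTfap2c. The knockdowns and the control stand in separate deposited tables that may have been scaled apart. The 8-cell embryo expressed Sall4 at 7.67 to 7.90, Pou5f1 at 4.89 to 6.53, Tead4 at 5.62 to 6.53 and Tdgf1 at 2.99 to 6.69 log2 units over the 10 libraries, genes chosen for this check after the values were seen.

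On mm10, by GENCODE M21, Lama1 lies on chromosome 17 (67697259 to 67822647), Lama5 on chromosome 2 (180176373 to 180225859), Lamb1 on chromosome 12 (31265234 to 31329644), Lamb2 on chromosome 9 (108479736 to 108490530) and Lamc1 on chromosome 1 (153218922 to 153332786). Nid1 lies on chromosome 13 (13437551 to 13512269), P4ha1 on chromosome 10 (59323296 to 59373304) and P4ha2 on chromosome 11 (54100095 to 54131665). Col4a1 (11198423 to 11312826) and Col4a2 (11312805 to 11449287) stand head to head on chromosome 8 and overlap by 22 bases at their starts. The library kit marks strand per the labels, but whether the abundances used strand is not given in the sources used here. Reads from this overlap, and from the exons that Col4a2 shares with Gm15419 and Nid1 with Gm48682 on the opposite strands, are therefore of uncertain origin.

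RefSeq promoter windows on GRCm38.p6, the assembly of mm10, run from 250 bases before to 50 bases after the RefSeq start. They were matched for 8 of the 10 genes. RefSeq and GENCODE starts can differ. The P4ha2 window begins at 54100674, inside the gene whose GENCODE start is 54100095, so it does not cover that start. The RefSeq start of Lamb2 also lies after its GENCODE start, within the window. Shown are Lamb2, P4ha1 and P4ha2, whose levels differed most from control in siTfap2c or in several groups, and Col4a1 for its shared start with Col4a2. Each reads 5′ to 3′ along the gene's strand. Capitals mark the letters GCCNNNGGC, as AP-2 factors bind, which read the same on both strands, and CCNCNCCC on either strand, as Krüppel-like factors bind; overlapping matches run together.
Lamb2 (chr9:108479612-108479911, plus strand): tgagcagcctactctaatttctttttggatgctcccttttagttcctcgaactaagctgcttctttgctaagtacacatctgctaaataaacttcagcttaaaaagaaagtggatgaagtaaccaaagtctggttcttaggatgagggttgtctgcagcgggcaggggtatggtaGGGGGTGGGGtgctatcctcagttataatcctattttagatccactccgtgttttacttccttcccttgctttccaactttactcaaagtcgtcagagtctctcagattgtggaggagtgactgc
P4ha1 (chr10:59323046-59323345, plus strand): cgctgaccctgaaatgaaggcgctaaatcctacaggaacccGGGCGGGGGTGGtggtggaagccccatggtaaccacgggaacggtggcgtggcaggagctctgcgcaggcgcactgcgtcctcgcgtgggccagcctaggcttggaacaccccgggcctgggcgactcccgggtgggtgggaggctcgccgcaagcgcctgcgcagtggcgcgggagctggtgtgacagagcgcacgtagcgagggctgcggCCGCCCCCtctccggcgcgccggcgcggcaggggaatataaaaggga
P4ha2 (chr11:54100674-54100973, plus strand): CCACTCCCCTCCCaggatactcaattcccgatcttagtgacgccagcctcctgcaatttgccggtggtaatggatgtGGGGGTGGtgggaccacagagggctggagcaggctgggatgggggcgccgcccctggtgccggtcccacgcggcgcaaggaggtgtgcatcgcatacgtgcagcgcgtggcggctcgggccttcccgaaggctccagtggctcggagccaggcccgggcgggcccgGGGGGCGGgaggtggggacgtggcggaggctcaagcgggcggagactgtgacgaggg
Col4a1 (chr8:11312777-11313076, minus strand): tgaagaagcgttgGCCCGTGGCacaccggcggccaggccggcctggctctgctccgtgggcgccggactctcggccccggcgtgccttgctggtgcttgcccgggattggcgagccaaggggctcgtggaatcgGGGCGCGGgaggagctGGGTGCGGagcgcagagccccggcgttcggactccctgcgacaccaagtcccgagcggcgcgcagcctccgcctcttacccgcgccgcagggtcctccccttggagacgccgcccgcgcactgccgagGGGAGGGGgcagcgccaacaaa
GCCNNNGGC was found in 2 of the 8 windows, those of Col4a1 and Col4a2, and in 16.6% of 32851 promoter windows of the same length. CCNCNCCC was found in all 8, with 2 matches in the Lamb2 window, 3 in those of P4ha1 and Col4a1 and 4 in that of P4ha2, and in 49.5% of all windows. The Col4a1 and Col4a2 windows overlap by 78 bases and share a CCNCNCCC match, so they are not separate windows. The letters ACGTG are 1 form of the core of the hypoxia response element, and other forms were not counted. Read on both strands and not capitalised here, ACGTG occurred 1 time in the P4ha1 window and 2 times in the P4ha2 window. It was found in 19.6% of all windows. The GC content of the 8 windows ran from 44.0% for Lamb2 to 74.0% for Col4a1, against a median of 52.7% over all windows. These matches describe the letters of the windows, and binding was not measured here.

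Among the alpha chains the embryos held mainly Lama5, which encodes the laminin alpha 5 chain of most adult epithelial basement membranes. Lama5 stood at 6.99 and 6.61 log2 units in siKlf5, 6.86 and 6.95 in siTfap2c, 6.81 and 6.95 in Arpc1bE_CdxE1_KO, 6.41 and 6.38 in CdxE2_KO, and 6.76 and 6.78 in Ctrl. It was lowest in the 2 CdxE2_KO libraries, which lay below every other library, while the siKlf5 values lay on both sides of the control. Lama1, the alpha 1 chain that early embryos are known to deposit, stood at 0.44 and 0.11 in siKlf5, 0.44 and 0.51 in siTfap2c, 0.14 and 0.71 in Arpc1bE_CdxE1_KO, 0.57 and 1.13 in CdxE2_KO, and 0.65 and 0.65 in Ctrl. Only CdxE2_KO replicate 2 reached 1 linear unit, and Lama1 was listed at 0 in none of the libraries. Lama5 made up 89.1% to 94.5% of the summed linear values of the alpha chains in each library.

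Of the beta chains, Lamb1 was more abundant than Lamb2 in every library but siTfap2c replicate 2. It stood at 3.62 and 3.67 log2 units in siKlf5, 3.41 and 3.11 in siTfap2c, 4.14 and 3.84 in Arpc1bE_CdxE1_KO, 3.91 and 4.02 in CdxE2_KO, and 3.39 and 3.50 in Ctrl. The 4 motif knockout libraries were its highest. Lamb2, the beta 2 chain of muscle, nerve and kidney laminins, stood at 1.21 and 1.54 in siKlf5, 3.19 and 3.28 in siTfap2c, 1.87 and 2.37 in Arpc1bE_CdxE1_KO, 2.21 and 2.41 in CdxE2_KO, and 2.02 and 2.41 in Ctrl. Its lowest pair of libraries was siKlf5 and its highest pair siTfap2c, with the control between them and overlapping neither. Lamb2 accordingly made up 10.4% and 14% of the summed beta chains in siKlf5, 45.8% and 53.2% in siTfap2c, 13.8% and 23.9% in Arpc1bE_CdxE1_KO, 20.6% and 22.2% in CdxE2_KO, and 24.3% and 29.6% in Ctrl. The next gene downstream on the same strand, Usp19, begins 72 bases after the end of Lamb2. It averaged 5.88 log2 units in siKlf5, 6.13 in siTfap2c, 5.94 in Arpc1bE_CdxE1_KO, 6.20 in CdxE2_KO and 5.78 in Ctrl.

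Lamc1, the gamma 1 chain found in most laminins, stood at 5.24 and 5.51 log2 units in siKlf5, 6.11 and 6.32 in siTfap2c, 6.24 and 6.44 in Arpc1bE_CdxE1_KO, 6.38 and 6.11 in CdxE2_KO, and 6.13 and 5.95 in Ctrl. The siKlf5 libraries were the lowest and overlapped no other group. In every library Lamc1 held 94.5% to 98.5% of the summed gamma chains. The chain classes were not level with each other: the alpha chains summed to 4.73 to 10.6 times the beta chains and the gamma chains to 3.09 to 5.65 times the beta chains over the 10 libraries. The alpha to gamma ratio was 3.43 and 2.23 in siKlf5, against 1.61 and 1.84 in Ctrl, so both siKlf5 libraries lay above the control, with a gap between replicates wider than that between the lower one and the control.

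Nid1, which encodes nidogen 1, the link between laminin and type IV collagen, was among the most abundant of the 10 genes. It stood at 5.61 and 5.66 log2 units in siKlf5, 6.21 and 6.15 in siTfap2c, 6.31 and 6.61 in Arpc1bE_CdxE1_KO, 6.83 and 6.63 in CdxE2_KO, and 6.44 and 6.40 in Ctrl. The siKlf5 pair was the lowest and the siTfap2c pair the next lowest, both below the control, and in CdxE2_KO Nid1 stood above Lama5, the highest of the 10 genes elsewhere.

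The collagen IV chains were near the floor. Col4a1 stood at 0.64 and 0.55 log2 units in siKlf5, 0.82 and 1.42 in siTfap2c, 1.55 and 1.21 in Arpc1bE_CdxE1_KO, 0.96 and 1.18 in CdxE2_KO, and 1.64 and 1.36 in Ctrl. In siKlf5 both values were below every other library, and siTfap2c overlapped the control. Col4a2 stood at 0.61 and 0.59 in siKlf5, 0.63 and 0.86 in siTfap2c, 0.94 and 0.86 in Arpc1bE_CdxE1_KO, 0.66 and 0.68 in CdxE2_KO, and 0.92 and 0.80 in Ctrl, and reached 1 linear unit in 0 of the 10 libraries. In linear units Col4a1 averaged 0.509 in siKlf5 and 1.84 in Ctrl, and with Lama1 and Col4a2 it was among the 3 lowest genes of the set in every library. No read counts were analysed here, so the depth behind such low values is unknown.

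The prolyl 4-hydroxylase is a tetramer of catalytic alpha subunits, encoded by P4ha1, P4ha2 or P4ha3, and of the beta subunit encoded by P4hb. P4ha2 stood at 5.28 and 5.20 log2 units in siKlf5, 4.91 and 5.09 in siTfap2c, 4.84 and 5.04 in Arpc1bE_CdxE1_KO, 5.19 and 5.26 in CdxE2_KO, and 4.28 and 4.39 in Ctrl. The 2 control libraries were its lowest, and all 8 perturbed libraries lay above them. P4ha1 stood at 4.02 and 4.26 in siKlf5, 2.84 and 3.05 in siTfap2c, 4.06 and 4.21 in Arpc1bE_CdxE1_KO, 4.24 and 4.30 in CdxE2_KO, and 3.91 and 3.98 in Ctrl. Its 2 siTfap2c libraries stood apart below the other 8, which lay within a narrow band. P4ha1 thus made up 27.7% and 32.8% of the summed P4ha1, P4ha2 and P4ha3 values in siKlf5, 15.5% and 16.4% in siTfap2c, 33.4% and 33.5% in Arpc1bE_CdxE1_KO, 30.7% and 31.6% in CdxE2_KO, and 40.5% and 39.6% in Ctrl, so the control held the largest P4ha1 share.

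**Figure D1:**
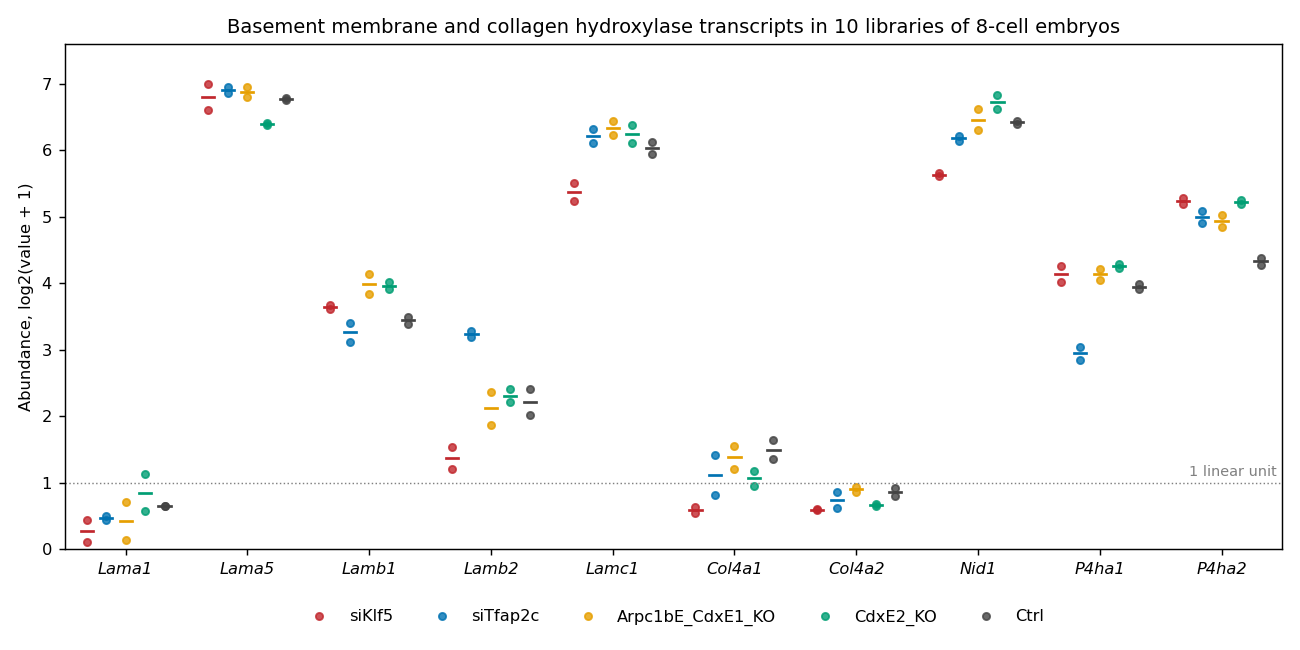
Level of each of the 10 genes (deposited log2(value + 1) units) in every library, with 1 point per library, a bar at each group's mean, the groups within a gene from left to right siKlf5, siTfap2c, Arpc1bE_CdxE1_KO, CdxE2_KO and Ctrl, and a dotted line at 1 linear unit. Lamb2 is lowest in siKlf5 and highest in siTfap2c, P4ha1 is low in siTfap2c alone, and P4ha2 lies above both control libraries in all 8 perturbed libraries.

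**Figure D2:**
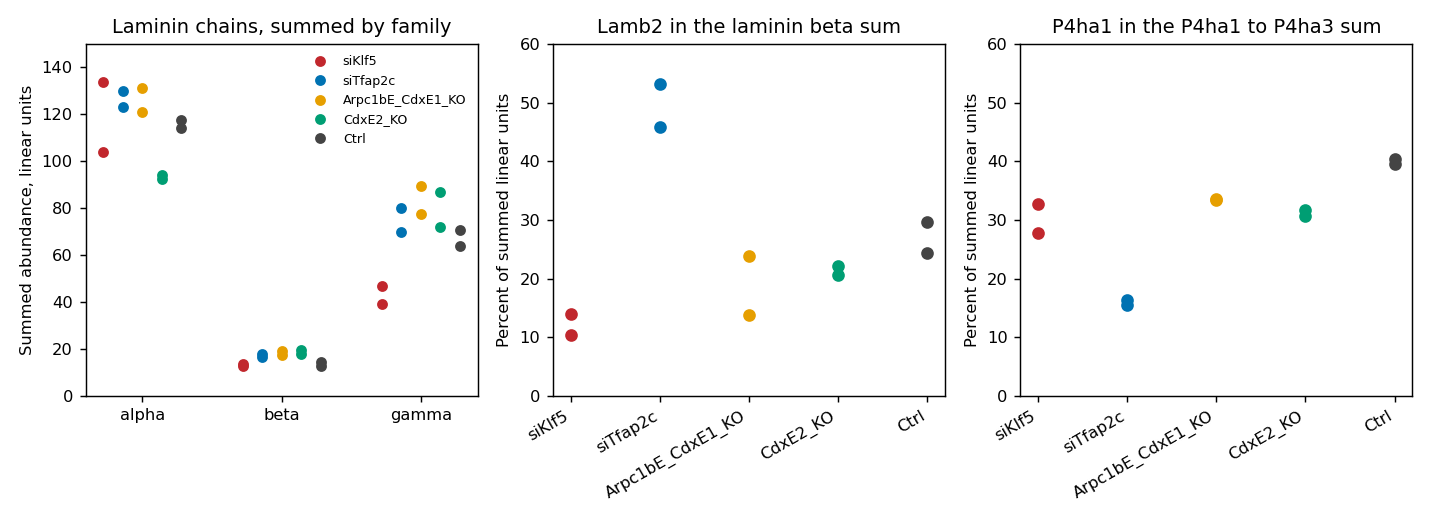
Summed linear values of the laminin alpha, beta and gamma chains (left), and the shares, in percent of summed linear values, of Lamb2 among the beta chains (middle) and of P4ha1 among P4ha1 to P4ha3 (right), with 1 point per library and Ctrl at the right of each set. The Lamb2 share of the beta chains lies between 45.8% and 53.2% in siTfap2c, above all other groups, and the P4ha1 share lies between 15.5% and 16.4% in siTfap2c, below all other groups.

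Klf5 knockdown was compared with control to describe which of these transcripts differed in level. Lamc1, Nid1, Lamb2 and Col4a1 lay lower in siKlf5 and P4ha2 lay higher, while Lama5, Lamb1 and P4ha1 differed by 0.03, 0.20 and 0.19 log2 units. The log2 difference of Nid1 was -0.79 (SE 0.11), with group means of 5.64 ± 0.03 in siKlf5 and 6.42 ± 0.03 in Ctrl (SD, n = 2 each). That of Lamc1 was -0.66 (SE 0.13), of Lamb2 -0.84 (SE 0.21) and of Col4a1 -0.91 (SE 0.23), and P4ha2 differed by 0.91 (SE 0.10), with 5.24 ± 0.06 in siKlf5 and 4.33 ± 0.08 in Ctrl. In linear units Nid1 averaged 48.8 in siKlf5 and 84.7 in Ctrl, Lamc1 40.7 in siKlf5 and 64.9 in Ctrl, and P4ha2 36.8 in siKlf5 and 19.2 in Ctrl. By limma at an adjusted p under 0.05, these 5 of the 8 filtered genes were called, 1 higher and 4 lower, against 7.52% of all 11195 tested genes (2.25% higher and 5.27% lower), a contrast that had served to choose the genes. The median difference of the 8 was -0.32, against -0.02 over all genes. Nid1 and P4ha2 stayed called in all 4 fits that left out a library. Lamb2 (differences of -0.64 to -1.04) and Col4a1 (-0.77 to -1.05) lost theirs without any 1 of them, and Lamc1 kept its call only without siKlf5 replicate 2 and lost it in the other 3 fits (-0.53, -0.57 and -0.75).

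Tfap2c knockdown was set against control in the same way. P4ha1 lay lower in siTfap2c, by -1.0 log2 units (SE 0.12), with means of 2.95 ± 0.15 in siTfap2c and 3.95 ± 0.05 in Ctrl. Lamb2 lay higher, by 1.02 (SE 0.21), with 3.24 ± 0.06 in siTfap2c and 2.21 ± 0.28 in Ctrl, and P4ha2 lay higher by 0.67 (SE 0.10), with 5.0 ± 0.13 in siTfap2c and 4.33 ± 0.08 in Ctrl (SD, n = 2 each). In linear units P4ha1 averaged 6.73 in siTfap2c and 14.4 in Ctrl, and Lamb2 8.43 in siTfap2c and 3.68 in Ctrl. Nid1 differed by -0.24 (SE 0.11), Lamc1 by 0.17 (SE 0.13), Lama5 by 0.14 (SE 0.11), Lamb1 by -0.18 (SE 0.13) and Col4a1 by -0.38 (SE 0.23). Of the 8 filtered genes 3 were called, 2 higher and 1 lower, against 24.6% of all tested genes (12.6% higher and 11.9% lower). P4ha1 and P4ha2 stayed called in all 4 fits that left out a library, and Lamb2 lost its call without Ctrl replicate 1, where the difference was 0.82.

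The knockdowns share the control libraries, so they were also set against each other directly. Lamb2 was higher in siTfap2c than in siKlf5 by 1.86 log2 units (SE 0.21), Lamc1 by 0.84 (SE 0.13) and Nid1 by 0.54 (SE 0.11), and P4ha1 was lower in siTfap2c by -1.20 (SE 0.12). These 4 of the 8 filtered genes were called, against 25.6% of all tested genes (15.1% higher and 10.5% lower), and all 4 stayed called whichever library was left out. P4ha2 differed by -0.24 (SE 0.10) and Lama5 by 0.11 (SE 0.11), neither of them called. Klf5 itself was below control in both knockdowns, by -2.90 (SE 0.10) in siKlf5 and by -1.78 (SE 0.10) in siTfap2c, with no overlap between them.

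The motif knockouts were compared with control inside their own table, where most genes lie higher. P4ha2 was higher by 0.89 log2 units (SE 0.11) in CdxE2_KO and by 0.61 (SE 0.11) in Arpc1bE_CdxE1_KO, and Lamb1 by 0.52 (SE 0.13) in CdxE2_KO and 0.55 (SE 0.13) in Arpc1bE_CdxE1_KO. Lama5 lay lower in CdxE2_KO, by -0.37 (SE 0.08), and differed by 0.11 (SE 0.08) in Arpc1bE_CdxE1_KO. As deposited, 2 of 8 genes were called in Arpc1bE_CdxE1_KO, both higher, against 24.0% of 10920 tested genes (23.2% higher and 0.815% lower). In CdxE2_KO 3 of 8 were called, 2 higher and 1 lower, against 29.9% (28.5% higher and 1.44% lower).

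With libraries scaled to the same sum, 0 of 8 were called by limma in Arpc1bE_CdxE1_KO, against 2.87% of all tested genes (0 of 8 and 2.94% with median centring), and the differences of Lamb1 and P4ha2 were 0.24 and 0.29. In CdxE2_KO the calls of P4ha2 (0.60) and Lama5 (-0.67) held after scaling, against 6.44% of all tested genes, and likewise with libraries centred on their medians (0.56 and -0.70, against 6.24% of all tested genes), while Lamb1 (0.24 by sum scaling) was not called. Without sum scaling, P4ha2 kept its call in CdxE2_KO without each library, whereas Lama5 (-0.36 to -0.39) and Lamb1 (0.46 to 0.57) lost theirs without any 1 of the 4. In Arpc1bE_CdxE1_KO P4ha2 lost its call without Ctrl replicate 1 (0.55) and without Ctrl replicate 2 (0.66), and Lamb1 lost its call without those (0.49 and 0.60) and without Arpc1bE_CdxE1_KO replicate 1 (0.40). In the same group the differences of Lama5 (0.11), Lamc1 (0.30), Nid1 (0.04) and P4ha1 (0.19) turned to -0.22, -0.03, -0.29 and -0.13 after sum scaling, so no direction is given for them. In CdxE2_KO those of Lamb2 (0.10) and Lamc1 (0.21) turned likewise, to -0.14 and -0.09.

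Between the knockouts, 0 of the 8 genes were called by limma, against 0.0458% of all tested genes. Lama5 was lower in CdxE2_KO than in Arpc1bE_CdxE1_KO by -0.48 log2 units (SE 0.08), with no overlap between the groups, and P4ha2 was higher by 0.29 (SE 0.11).

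**Figure D3:**
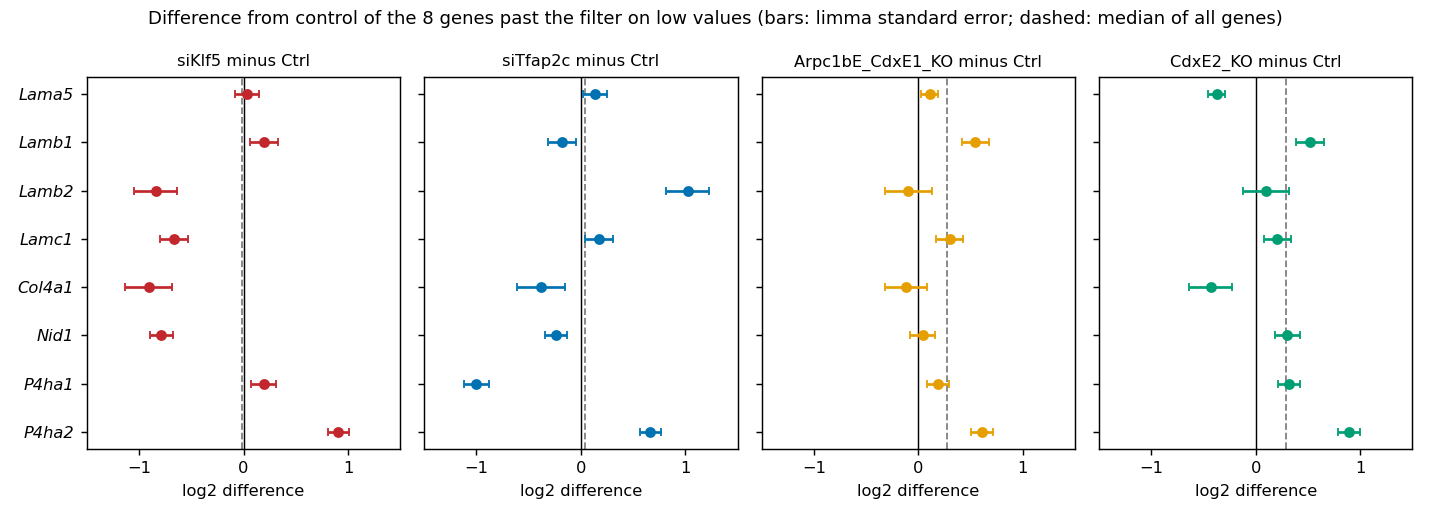
Log2 difference of the 8 genes past the filter on low values in each of the 4 comparisons with Ctrl, as points with bars of ±1 standard error from limma; the dashed line is the median of all tested genes. Nid1, Lamc1, Lamb2 and Col4a1 lie left of 0 in siKlf5, P4ha1 lies at -1.0 and Lamb2 at 1.02 in siTfap2c, and P4ha2 lies right of 0 in all 4 comparisons, which share the same control libraries.

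Other genes of the same processes were tested as lists, with p-values adjusted over all tested genes. Their counts stand beside the shares of all tested genes called, 2.25% higher and 5.27% lower in siKlf5, 12.6% higher and 11.9% lower in siTfap2c, 23.2% higher and 0.815% lower in Arpc1bE_CdxE1_KO, and 28.5% higher and 1.44% lower in CdxE2_KO, and their medians beside those of all genes given above. These shares are as deposited. After sum scaling 2.87% of all tested genes were called in Arpc1bE_CdxE1_KO and 6.44% in CdxE2_KO, in either direction. Of 24 other basement membrane components 9 passed the filter on low values. In siTfap2c 2 of these 9 rose and 1 fell, where 24.6% of all tested genes were called, and the list's median difference was 0.06. Hmcn1, which encodes the large matrix protein hemicentin 1, stood at 1.88 and 1.72 in siTfap2c and 0.88 and 0.85 in Ctrl (difference 0.94, limma adjusted p = 0.0040). Nid2, the other nidogen, stood at 1.78 and 1.60 in siTfap2c and 2.41 and 2.50 in Ctrl (-0.77, limma adjusted p = 0.0020). Frem2, a matrix protein of the Fraser complex, rose by 0.85 (limma adjusted p = 0.014). Hmcn1 and Nid2 kept their calls without each library, and Frem2 kept its call only without siTfap2c replicate 2 (0.76 to 0.89 in the other 3 fits). In the knockouts as deposited 8 of these genes were tested. Of the 8 tested basement membrane components 1 rose in CdxE2_KO, Papln, a matrix protein related to proteases, by 0.76 (limma adjusted p = 0.026), a call lost without any 1 of the libraries and after sum scaling (0.56). In Arpc1bE_CdxE1_KO 0 of the 8 were called by limma, and 2 had an unadjusted p under 0.05. In siKlf5 0 of the 9 were called, and 0 had an unadjusted p under 0.05 by limma, and the list's median difference was -0.08. Nid2 stood at 2.55 and 2.62 in siKlf5, above both control libraries, where Nid1 lay below them. The difference between both genes' changes was not tested. Sparc, a collagen-binding matrix protein, was at 0.06 to 0.28 in all libraries and did not pass the filter.

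Of 25 other collagen-modifying enzymes and collagen chaperones 15 passed the filter. In siKlf5 1 of the 15 rose and 1 fell, where 7.52% of all tested genes were called, with a median difference of 0.03. P4hb, the partner of P4ha1 and P4ha2 in the hydroxylase, stood at 6.48 and 6.48 in siKlf5 and 6.06 and 6.10 in Ctrl (difference 0.40, limma adjusted p = 0.010), and Plod1, a lysyl hydroxylase of collagen, fell by 0.62 (limma adjusted p = 0.043). Both calls were lost without any 1 of the libraries, at differences of 0.37 to 0.42 for P4hb and -0.54 to -0.70 for Plod1. In siTfap2c 3 of the 15 rose and 0 fell as deposited, against 12.6% higher and 11.9% lower of all tested genes, and the median difference was 0.01. With median centring 3 rose and 1 fell. P4ha3, the third catalytic subunit, rose by 0.64 (limma adjusted p = 0.024), P3h1, a prolyl 3-hydroxylase, by 0.73 (limma adjusted p = 0.039), and Tmem38b, a cation channel of the endoplasmic reticulum needed for collagen modification in bone, by 0.65 (limma adjusted p = 0.015). P4ha3 lost its call without any 1 of the libraries (0.55 to 0.72), P3h1 kept it only without Ctrl replicate 1 (0.44 to 0.76 in the other 3 fits), and Tmem38b lost it without siTfap2c replicate 1 (0.50) and without Ctrl replicate 2 (0.46). P4hb stood at 5.99 and 5.98 in siTfap2c, against 6.06 and 6.10 in Ctrl. Serpinh1, the collagen chaperone Hsp47, was at 0.00 to 0.18 in all libraries and did not pass the filter.

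In the knockouts as deposited, 2 of these 15 genes were higher in Arpc1bE_CdxE1_KO and 5 in CdxE2_KO, and 0 were lower in either, against 23.2% and 28.5% of all tested genes called higher. The list's median difference was 0.16 in Arpc1bE_CdxE1_KO and 0.39 in CdxE2_KO. Tmem38b stood at 5.36 and 5.03 in Arpc1bE_CdxE1_KO, 5.04 and 5.04 in CdxE2_KO, and 3.16 and 2.78 in Ctrl. Its differences were 2.22 (limma adjusted p = 0.00082) in Arpc1bE_CdxE1_KO and 2.07 (limma adjusted p = 0.0011) in CdxE2_KO. It kept both calls without each library and after sum scaling (1.91 and 1.79). Ppib, a prolyl isomerase of the endoplasmic reticulum, was higher by 1.02 in Arpc1bE_CdxE1_KO and 0.64 in CdxE2_KO. P4hb (0.46) and Mia3 (0.55), an export receptor for collagen, were called higher in CdxE2_KO. After sum scaling the calls numbered 2 of 15 in Arpc1bE_CdxE1_KO, against 2.87% of all tested genes, with Ppib at 0.71. In CdxE2_KO they numbered 1 of 15, against 6.44% of all tested genes. The Ppib call in Arpc1bE_CdxE1_KO was lost without Ctrl replicate 1 (0.90), and those of Ppib, P4hb and Mia3 in CdxE2_KO without any 1 of the libraries.

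Of 13 receptors for basement membrane proteins 10 passed the filter. In siTfap2c 3 of the 10 fell and 1 rose, against 11.9% lower and 12.6% higher of all tested genes, with a median difference of 0.07. Itga3, the alpha 3 integrin that binds laminins with the alpha 5 chain, stood at 0.70 and 0.99 in siTfap2c and 2.53 and 2.41 in Ctrl (difference -1.62, limma adjusted p = 6.7e-05). Dag1, dystroglycan, stood at 3.08 and 3.28 in siTfap2c and 3.94 and 4.18 in Ctrl (-0.88, limma adjusted p = 0.0048). Both kept their calls without each library. Itga1, a collagen-binding integrin, fell by 0.73 (limma adjusted p = 0.018) and Itgb1, the common integrin beta 1 chain, rose by 0.39 (limma adjusted p = 0.0073), of which Itga1 stayed called only without Ctrl replicate 2 (-0.63 to -0.77 in the other 3 fits) and Itgb1 was lost without siTfap2c replicate 2 (0.36) and without Ctrl replicate 1 (0.37). In siKlf5 2 of the 10 fell and 1 rose as deposited, against 5.27% lower and 2.25% higher of all tested genes, with a median difference of -0.23. With median centring 2 fell and 2 rose. Itgb4, the beta 4 integrin, fell by 0.77 (limma adjusted p = 0.0097), Itga3 by 0.74 (limma adjusted p = 0.018), and Ddr2, a collagen-binding kinase, rose by 0.76 (limma adjusted p = 0.020). The call of Itgb4 was lost without siKlf5 replicate 2 (-0.69) and without Ctrl replicate 2 (-0.68), that of Itga3 without any 1 of the libraries (-0.68 to -0.80), and that of Ddr2 in all fits but the one without Ctrl replicate 1 (0.57 to 0.88).

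Sdc4, a heparan sulfate proteoglycan of the cell surface, was the receptor that differed in the knockouts under both scalings. It stood at 4.62 and 4.72 in Arpc1bE_CdxE1_KO, 4.29 and 4.66 in CdxE2_KO, and 3.16 and 2.41 in Ctrl. The differences were 1.88 (limma adjusted p = 0.0064) in Arpc1bE_CdxE1_KO and 1.69 (limma adjusted p = 0.0060) in CdxE2_KO, and 1.58 and 1.42 after sum scaling, and both calls held without each library (1.32 to 2.26). As deposited, 3 of the 10 receptors were higher and 0 lower in each knockout, close to the 23.2% and 28.5% of all tested genes called higher in Arpc1bE_CdxE1_KO and in CdxE2_KO. The list's median difference was 0.12 in Arpc1bE_CdxE1_KO and 0.17 in CdxE2_KO. The calls were those of Itgb1 (0.52 in Arpc1bE_CdxE1_KO and 0.41 in CdxE2_KO) and Sdc1 (0.63 and 0.85) beside Sdc4. The Itgb1 call was lost in CdxE2_KO without any 1 of the libraries (0.35 to 0.47), and in Arpc1bE_CdxE1_KO without either control library (0.50 and 0.54). Sdc1 kept its call in Arpc1bE_CdxE1_KO only without Arpc1bE_CdxE1_KO replicate 1 (0.51 to 0.76 in the other fits). In CdxE2_KO the Sdc1 call was lost without CdxE2_KO replicate 2 (0.81) and without Ctrl replicate 2 (0.72). After sum scaling 1 of the 10 was higher and 0 lower in Arpc1bE_CdxE1_KO, against 2.87% of all tested genes called. In CdxE2_KO 1 was higher and 1 lower, against 6.44%.

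P4ha1 and P4ha2 are known targets of the hypoxia response, so genes of that response were followed beside them, 10 of 15 of which passed the filter. In siKlf5 1 of the 10 rose and 1 fell, where 7.52% of all tested genes were called. Egln1, the prolyl hydroxylase that marks Hif1a for decay and is itself a target of the response, stood at 4.12 and 3.98 in siKlf5 and 4.99 and 4.95 in Ctrl (difference -0.92, limma adjusted p = 0.0022), and kept its call without each library. Bnip3, a mitophagy receptor, rose by 0.38 (limma adjusted p = 0.027), a call lost without any 1 of the libraries. In siTfap2c 0 of the 10 were called as deposited, with 2 at an unadjusted p under 0.05 by limma, and 1 was called higher after sum scaling. In CdxE2_KO 5 of the 10 rose and 1 fell as deposited, against 28.5% higher and 1.44% lower of all tested genes, led by Ldha, lactate dehydrogenase A (1.33, limma adjusted p = 0.0088), and 1 was higher (Ldha, 1.05) and 1 lower (Egln1, -0.64) after sum scaling, while with median centring Egln1 alone was called. Pgk1 (0.88), Ndrg1, a stress-response gene (0.88), and Vegfa, an angiogenic growth factor (0.70), were the next by p. As deposited the call of Ldha was lost without CdxE2_KO replicate 2 (1.23) and without Ctrl replicate 2 (1.07), and the call of each other gene of this list without at least CdxE2_KO replicate 2. In Arpc1bE_CdxE1_KO 2 of the 10 rose as deposited, against 23.2% of all tested genes, Ldha by 0.91 and Pgk1, phosphoglycerate kinase, by 0.88, and 0 were called after sum scaling; both calls were lost without either control library, that of Ldha also without Arpc1bE_CdxE1_KO replicate 2 (0.63) and that of Pgk1 without Arpc1bE_CdxE1_KO replicate 1 (0.73). The median difference of the 10 genes was 0.28 in siKlf5, 0.13 in siTfap2c, 0.45 in Arpc1bE_CdxE1_KO and 0.61 in CdxE2_KO, against -0.02, 0.04, 0.27 and 0.29 over all tested genes. Of 10 matrix proteases and inhibitors 1 passed the filter, Plat, the tissue plasminogen activator, which rose by 0.49 in CdxE2_KO as deposited (limma adjusted p = 0.044) and lost its call without any 1 of the libraries and after sum scaling (0.21).

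**Figure D4:**
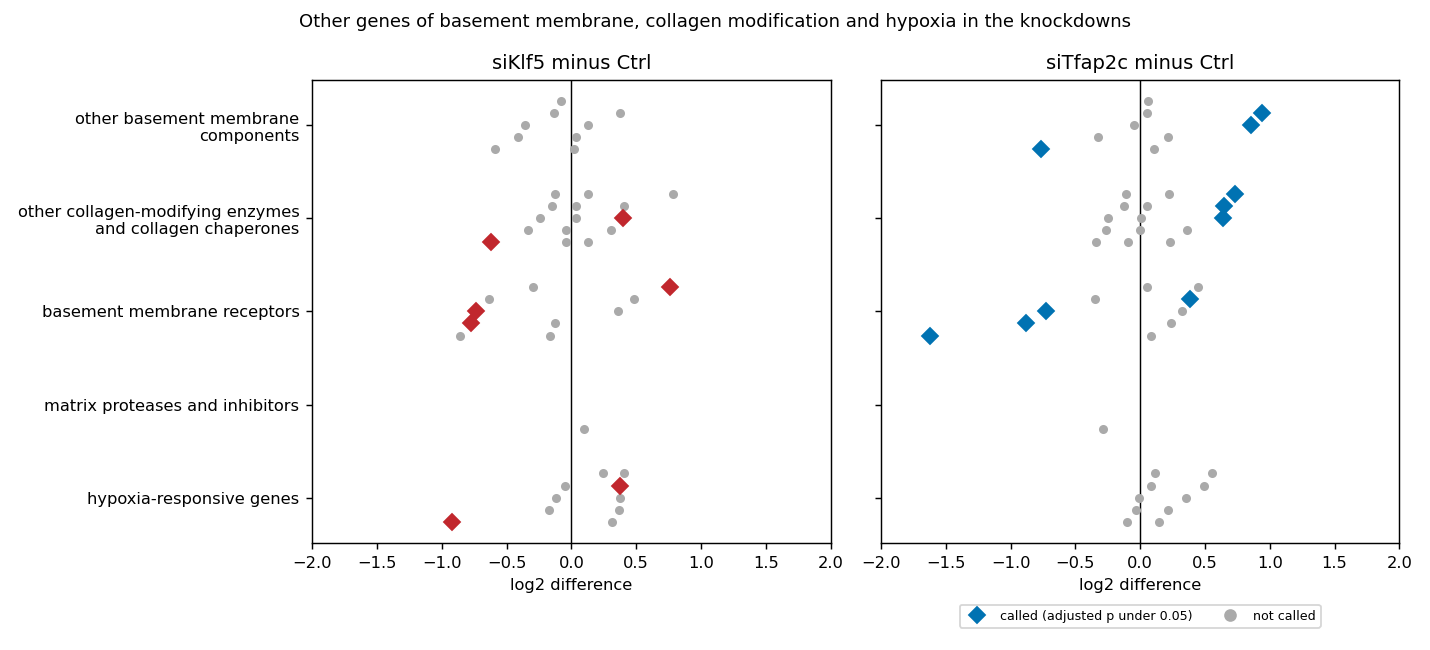
Log2 differences (horizontal axis) of the tested genes of 5 lists, none of them among the 10 genes described above, in siKlf5 against Ctrl and in siTfap2c against Ctrl, with 1 point per gene; diamonds mark genes called by limma at an adjusted p under 0.05 over all tested genes. In siTfap2c the receptors Itga3 (-1.62) and Dag1 (-0.88) lie farthest left, and Hmcn1 (0.94) farthest right.

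In bulk libraries fewer cells of a type and less RNA per cell cannot be told apart. Of 7 fibroblast markers 0 passed the filter, and their linear values summed to at most 0.271 in any library, with Dcn and Lum at 0 throughout. Of 11 cumulus and granulosa markers 2 passed, Gja1 and Kitl, which embryos also express, while Fshr and Inha were at 0 in all libraries; the list summed to 430 to 451 linear units in siKlf5, 377 to 399 in siTfap2c, 538 to 555 in Arpc1bE_CdxE1_KO, 489 to 514 in CdxE2_KO and 426 to 450 in Ctrl. Gja1, at 8.56 to 9.11 log2 units against at most 2.18 for Kitl, made up most of that sum. Kitl was lower in siTfap2c by -1.15 (limma adjusted p = 0.0019), a call kept without each library, and Gja1 was higher in Arpc1bE_CdxE1_KO by 0.32 as deposited (-0.01 after sum scaling). Of 12 primitive and parietal endoderm markers 5 passed, Gata4, Gata6, Pdgfra, Dab2 and Amn, and the others, Sox17, Sox7, Foxa2, Ttr, Afp, Thbd and Pth1r, stayed at or below 0.45 log2 units. That list summed to 169 to 171 linear units in siKlf5, 123 to 124 in siTfap2c, 154 to 183 in Arpc1bE_CdxE1_KO, 166 to 168 in CdxE2_KO and 168 to 170 in Ctrl. It was lowest in siTfap2c, the group with low P4ha1 and high Lamb2, where 3 of the 5 were called lower by limma. Gata6, the highest marker of that list in each library, weighs most in the sum. It stood at 6.21 and 6.31 in siTfap2c and 6.86 and 6.82 in Ctrl. Gata4 stood at 5.35 and 5.07 in siTfap2c and 5.11 and 5.33 in Ctrl. Gata6 (-0.58) kept its call without each library. Dab2 (-0.56) kept it only without Ctrl replicate 2 (-0.46 to -0.56 in the other 3 fits), and Pdgfra (-0.53) only without siTfap2c replicate 2 (-0.34 without siTfap2c replicate 1). In siKlf5 Dab2 (-0.76) was called lower and kept its call only without siKlf5 replicate 1 (-0.59 to -0.85 in the other 3 fits). In CdxE2_KO 1 of the 5 markers was called higher and 0 lower as deposited. After sum scaling 1 was higher and 1 lower, against 6.44% of all tested genes called, and likewise with median centring (6.24%). Pdgfra was called higher in CdxE2_KO by 0.86 (limma adjusted p = 0.0048), a call kept without each library and after sum scaling (0.58). In Arpc1bE_CdxE1_KO it was higher by 0.60 as deposited, a call lost without Ctrl replicate 1 (0.53), without Ctrl replicate 2 (0.66) and after sum scaling (0.30). The part of these cells or genes in the differences above was not tested.

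For each of the 10 genes whose level ranged over at least 1 log2 unit, the genes most like it were taken among 10528 tested genes as those with the smallest root mean square difference over the 10 libraries, each gene centred on its own mean. For P4ha1 these were Syncrip (0.08 log2 units), Ezh2 (0.11) and Man1b1 (0.12), and for P4ha2 they were Sox4 (0.11), Zfp367 (0.13) and Fzd5 (0.14). Nid1 was most like Faap24 (0.10), Tep1 (0.12) and Nkrf (0.13), and Lamc1 most like Ryr1 (0.11), Acvr2a (0.12) and Oscar (0.12). Lamb1 lay nearest to Mphosph10, Mgat4a and Paip2 (0.07 each). Lamb2, with the widest range, had more distant neighbours, Tcf23 (0.20), Adcy3 (0.21) and Lmod1 (0.21), as had Col4a1 with Cct6b (0.17), Ptpn22 (0.18) and Kcnk5 (0.19). Lama1, close to the floor, was nearest to Nedd9 (0.13), Sdr39u1 (0.13) and Uap1l1 (0.14). The 10 genes themselves were not candidates. Distances were taken on the deposited values, so the higher sums of the motif knockout libraries enter them. Every gene has nearest genes by this rule, and shared regulation was not tested.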

How the data were processed

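Abundances of 24421 genes were taken as the authors deposited them, as log2 values in 3 tables with 1 column per library. Exact zeros show that the added constant was 1. The submitters' processing notes name the mm10 build and HISAT2 2.1.0, Cufflinks, StringTie 1.3.4 and SAMtools 1.7, in roles that are not given in the sources used here. No read counts entered the analysis, and the sequencing depth behind the values is unknown. Of a library's values 26.0% to 34.5% were 0, which may include failed estimates, since Gapdh stood at 0.00 to 0.81.

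Genes reaching 1 linear unit in 2 or more libraries entered limma 3.58.1 (R 4.3.3; eBayes, trend), and a call means a Benjamini-Hochberg adjusted p below 0.05 over all tested genes. The control is tabulated with the motif knockouts, so knockdown comparisons cross tables and were fitted on all 10 libraries (11195 genes), and knockout comparisons on the 6 libraries of that table (10920 genes). Alternatives were other scalings, filters and constants, a replicate block, other fits, and leaving out each library. Genes named are the 10 genes, Klf5 and Tfap2c, up to 4 called genes per list and comparison with Ctrl, by lowest p, and the 3 genes most like each of the 10 whose level varied by at least 1 log2 unit. The 10 genes and the lists were chosen with earlier results of these data known. Usp19, Sall4, Pou5f1, Tead4, Tdgf1, Sparc and Serpinh1, and Egln1 in CdxE2_KO, were named after their values were seen. The list of other laminin chains is not reported here.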

Additional observations from a re-analysis of the deposited data

How the results depend on the processing

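Over 590 values of the 10 genes under the alternatives, 0 called values turned sign. Of the 590, 554 moved by less than 1 SD between replicates. The other 36 moved by more, 18 with median centring, 13 with sum scaling and 5 with a constant of 0.1 in place of 1. With that constant Lamb2 differed by -1.15 and Col4a1 by -1.66 in siKlf5. Only the other scalings and the other constant could move a value that far. Filters, the trend, the replicate block and the choice of groups leave a difference, and so its sign, unchanged. Leaving out 1 of 2 libraries cannot move it by more than that SD. Most of the 554 were therefore fixed in advance. In siKlf5 the calls of Lamb2, Lamc1 and Col4a1 were lost without the filter on low values, that of Lamb2 also with median centring and without the trend, and that of Col4a1 with a replicate block. Lamb1 in both knockouts lost its call without the filter. Calls were gained by P4ha1 in CdxE2_KO (filter at 5 linear units, or those groups alone) and by Nid1 in siTfap2c and CdxE2_KO (those groups alone). In CdxE2_KO the differences of P4ha1 (0.32) and Nid1 (0.30) were 0.04 and 0.01 after sum scaling, and -0.01 and -0.03 with median centring. Lamb1 gained a call in siTfap2c against siKlf5 (filter at 5 linear units, or median centring). A filter at 5 linear units leaves out Col4a1 and, in the knockout fits, Lamb2. The count of called genes over the whole series depended on the settings. For siKlf5 against Ctrl it was 842, 507 without the filter on low values, and 211 to 317 without 1 library. For siTfap2c against Ctrl it was 2749, and 1542 to 1766 without 1 library. For Arpc1bE_CdxE1_KO against Ctrl it was 2621, 1166 without the filter, 321 with median centring, 313 with sum scaling, and 147 to 2818 without 1 library. For CdxE2_KO against Ctrl it was 3270, 1858 without the filter, 681 with median centring, 703 with sum scaling, and 477 to 1047 without 1 library. For siTfap2c against siKlf5 it was 2865, and 1599 to 1787 without 1 library. For CdxE2_KO against Arpc1bE_CdxE1_KO it was 5, 0 by limma without the filter (where 1828 genes had an unadjusted p under 0.05), 2 without the trend, 2 with those groups alone, 14 with all 10 libraries, and 4 to 150 without 1 library. With median centring the share of higher calls moved to 46.2% for siKlf5 against Ctrl, where it was 29.9% as deposited, to 46.5% for siTfap2c against siKlf5 (59.1% as deposited), to 55.5% for Arpc1bE_CdxE1_KO (96.6% as deposited) and to 42.3% for CdxE2_KO (95.2% as deposited). With 2 libraries a group, leaving 1 out rests on a lone library assumed to vary like the other groups, and the causes of the other moves were not tested. The same replicate numbers occur in each group, and the deviations of same-numbered libraries correlated at -0.05 to 0.04 over 10 pairs of groups. No common deviation over all genes was thus seen. A shared embryo pool or day that acts on few genes would not show in this measure. With a replicate block the counts were 706 for siKlf5 against Ctrl, 2615 for siTfap2c against Ctrl, 2483 for Arpc1bE_CdxE1_KO against Ctrl, 3087 for CdxE2_KO against Ctrl, 2735 for siTfap2c against siKlf5 and 4 for CdxE2_KO against Arpc1bE_CdxE1_KO.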
